A study of Mus musculus with 14 samples.

Results

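The 9 genes described here encode heat shock chaperones of the mouse: Hspa1a, Hspa1b, Hspa8 and Hsph1 of the HSP70 machinery, its J-domain partner Dnajb1, the cytosolic chaperone Hsp90aa1, the mitochondrial chaperonin pair Hspd1 and Hspe1, and the small heat shock protein Hspb1. They were chosen by name, by taking every non-control probe whose transcript accession belongs to 1 of these 9 symbols, which gave 14 of the 41174 probes on the array. All 9 genes entered the 21969 features tested. The samples were 14 one-colour arrays of RNA from sorted myeloid cells of male mice of the strain YARG, 12 to 16 weeks old, in which a fluorescent reporter marks cells that express arginase-1 (Arg1). Arg1+ brain macrophages (n = 4) and Arg1- brain macrophages (n = 4) came from brains 1 day after controlled cortical impact, a piston-driven traumatic brain injury (TBI). Post-TBI blood monocytes (n = 3) came 1 day after the same injury, and normal blood monocytes (n = 3) came from untreated mice. All 4 groups carry the reporter. Brain cells were digested with 0.5 mg/ml collagenase type I and DNase at 37 °C for 30 min and passed over a Percoll gradient, whereas blood cells had no digestion and a ficoll step. Brain against blood therefore compares tissue, digestion and gradient at once, and these cannot be told apart. The sort used the leukocyte and myeloid surface markers CD45 and CD11b, the macrophage marker F4/80, the neutrophil marker Ly6G and Sytox blue to gate out dead cells. The labels do not say whether replicates are separate animals, so p-values measure the spread between these samples, which may be technical. No sham-operated group is analysed here.

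Heat shock chaperones keep other proteins folded. HSP70 proteins bind exposed stretches of unfolded chains, J-domain proteins such as Dnajb1 deliver those chains and set off ATP hydrolysis, and exchange factors such as Hsph1 release the nucleotide. HSP90 acts later, on nearly folded clients, the chaperonin of Hspd1 with its lid Hspe1 folds proteins inside mitochondria, and small heat shock proteins such as Hspb1 hold unfolded proteins without ATP. Heat and other protein-damaging stress release the transcription factor HSF1, which binds heat shock elements, repeats of the unit GAA and its reverse complement, in the promoters of the inducible members. Hspa8 and Hsp90ab1 are the constitutive counterparts of the inducible Hspa1a, Hspa1b and Hsp90aa1.

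The promoters of the members show which of them share sequence. RefSeq promoter windows of GRCm38.p6, which hold 300 bases, 250 before and 50 after the start, were found for 7 of the 9 members. Hspa8 and Hsp90aa1 had no entry. A 2-unit element, written GAANNTTC or TTCNNGAA, each its own reverse complement, was present in the windows of 6 of these 7 members (all but Dnajb1) and in 16.973% of 27025 genes. A 3-unit element, written GAANNTTCNNGAA or TTCNNGAANNTTC, the reverse complement of each other, was present in Hspd1, Hspe1 and Hsph1 and in 0.662% of genes, and every 3-unit match also holds 2-unit matches. These matches are descriptions of letters and not of bound sites. The 150 bases before the start of Hspa1a, Hspa1b, Hspe1 and Hspb1 are printed 5′ to 3′ on the strand of the gene, with the matches in capitals, because the probes of the first pair disagree below, Hspe1 shares its element with Hspd1, and Hspb1 had the widest range between groups. Hspa1a lies at chr17:34972157-34972306 (minus strand), Hspa1b at chr17:34959239-34959388 (minus strand), Hspe1 at chr1:55087998-55088147 (plus strand) and Hspb1 at chr5:135887769-135887918 (plus strand).
Hspa1a: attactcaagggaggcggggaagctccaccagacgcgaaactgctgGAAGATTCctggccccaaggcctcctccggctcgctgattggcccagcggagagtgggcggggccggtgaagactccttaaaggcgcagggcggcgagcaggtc
Hspa1b: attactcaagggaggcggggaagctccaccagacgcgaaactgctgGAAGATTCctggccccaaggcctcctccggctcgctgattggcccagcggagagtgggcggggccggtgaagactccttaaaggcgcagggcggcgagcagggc
Hspe1: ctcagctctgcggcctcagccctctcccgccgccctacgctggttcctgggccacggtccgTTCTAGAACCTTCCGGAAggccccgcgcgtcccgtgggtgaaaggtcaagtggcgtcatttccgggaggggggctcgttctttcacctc
Hspb1: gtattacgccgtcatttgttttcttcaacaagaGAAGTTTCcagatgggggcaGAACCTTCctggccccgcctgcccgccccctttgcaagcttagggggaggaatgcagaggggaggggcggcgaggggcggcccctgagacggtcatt
The upstream sequences of Hspa1a and Hspa1b differed at 1 of these 150 bases (99.33% identity) and at 3 of 250 bases (98.8%). The 18-base element of Hspe1, at chr1:55088059-55088076, is also that of Hspd1, which is read in the opposite direction. Probes of Hspa1a and Hspa1b may take up each other's RNA, so values of the 2 genes are uncertain as values of 1 gene.

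Levels below are log2 of the processed signal divided by the 75th percentile of its array, so that 0 is the signal of a probe at that percentile, and levels of different probes cannot be set against each other. A call is an adjusted p under 0.05 in a limma fit of all 14 arrays, adjusted over 21969 features. Dimmer probes were tested in a second limma fit, adjusted over all 27609 kept probes, so their adjusted p-values rest on another set. Arrays differed in brightness, with a 75th percentile between 119.4 and 418.5 units and with 50.1% to 67.2% of probes well above background, and no spot was saturated. Arg1 itself was higher in Arg1+ brain cells than in Arg1- brain cells by 3.25 ± 0.43 (log2 ± SE, adjusted p = 0.000526, with 3 of 4 Arg1+ spots usable). Of 9 macrophage and monocyte markers, 9 were well above background on every brain array and 8 or 9 on every blood array. Their summed level was 172.8 to 234.7 in Arg1+ brain, 166.6 to 207.3 in Arg1- brain, 208.2 to 288.9 in post-TBI blood and 181.9 to 249.5 in normal blood, in multiples of the 75th percentile. Other cell types left marks as well. The sum of 5 red cell markers was 39.7 to 92.7 and 41.2 to 86.6 on Arg1+ and Arg1- brain arrays, against 1087.5 to 1774.6 in post-TBI blood and 517.6 to 1224.7 in normal blood. Microglial markers (9 genes) summed to 42.5 to 69.0 and 33.7 to 48.3 in Arg1+ and Arg1- brain, against 11.4 to 13.04 in post-TBI blood and 10.2 to 11.7 in normal blood. The part of these cells in the results was not tested, and fewer cells of a type and less RNA per cell cannot be told apart. The dimmest array of a group often held the lowest value of a member: Arg1+ replicate 1 for 8 of 9 members, post-TBI replicate 4 for 6 and normal replicate 4 for 6, where it was the lowest array for 34.7%, 45.6% and 38.6% of all features. In Arg1- brain the dimmest array, replicate 2, was lowest for 4 members and for 24.3% of all features, below the 28.8% of replicate 1.

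Hspb1, a small heat shock protein that binds unfolded clients and actin, showed the widest difference between brain and blood. Its level was -1.79, -1.28, -0.91 and 0.36 in Arg1+ brain and -1.57, -1.84, -0.90 and 0.32 in Arg1- brain. Blood arrays gave -2.64, -3.85 and -2.78 after TBI and -3.34, -3.30 and -2.70 in normal mice. Every brain array lay above every blood array, and replicate 4 stood highest in both brain groups. Hspb1 was higher in Arg1+ brain than in post-TBI blood by 2.19 ± 0.53 (4.55-fold, adjusted p = 0.00409) and in Arg1- brain by 2.09 ± 0.53 (4.26-fold, adjusted p = 0.00691). The post-TBI signal behind these folds was dim, with 2 of 3 arrays well above background. Their size depended on the processing. Over 26 settings, which include normal blood in place of post-TBI blood, the differences ran from 1.31 to 2.48 and from 1.17 to 2.37. With the slide of the array as a block they were 2.23 (adjusted p = 0.00788) and 2.14 (adjusted p = 0.0124), and within the 3 slides that hold brain and post-TBI arrays they ran from 1.87 to 3.00 and from 0.80 to 4.17. Arg1+ and Arg1- brain overlapped throughout (0.10 ± 0.49, adjusted p = 0.975), as did post-TBI and normal blood (0.02 ± 0.57, adjusted p = 1). Markers of 2 cell types that express Hspb1 were recorded beside it. The summed level of 7 astrocyte markers was 2.41 to 5.15 in Arg1+ brain and 2.48 to 4.42 in Arg1- brain, against 1.17 to 1.55 in post-TBI blood and 0.97 to 1.59 in normal blood, with 4 to 7, 4 to 6, 2 to 4 and 2 to 4 of the 7 well above background. The astrocyte sum was highest on replicate 4 in Arg1+ brain (5.15). In Arg1- brain it was highest on replicate 2 (4.42), the array with the least Hspb1 of that group, and replicate 4 had 4.35. The sum of 7 endothelial markers was highest on replicate 4 in each brain group (11.03 and 6.74), the arrays with the most Hspb1, and ran from 5.61 to 6.52 and from 3.88 to 4.70 on the others. Post-TBI blood had endothelial sums of 6.87 to 9.18 and normal blood 5.20 to 7.26, made up mostly of Vwf, Pecam1 and Flt1. Other endothelial markers went the other way: Kdr had a mean level of 0.13 in Arg1+ brain and -0.08 in Arg1- brain, against -4.15 in post-TBI blood and -4.31 in normal blood. Cdh5 and Tek were well above background on none of the 6 blood arrays, and on 2 and 1 of 4 Arg1+ brain arrays and 3 and 1 of 4 Arg1- brain arrays. The part of these cells in the Hspb1 values was not tested.

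**Figure D1:**
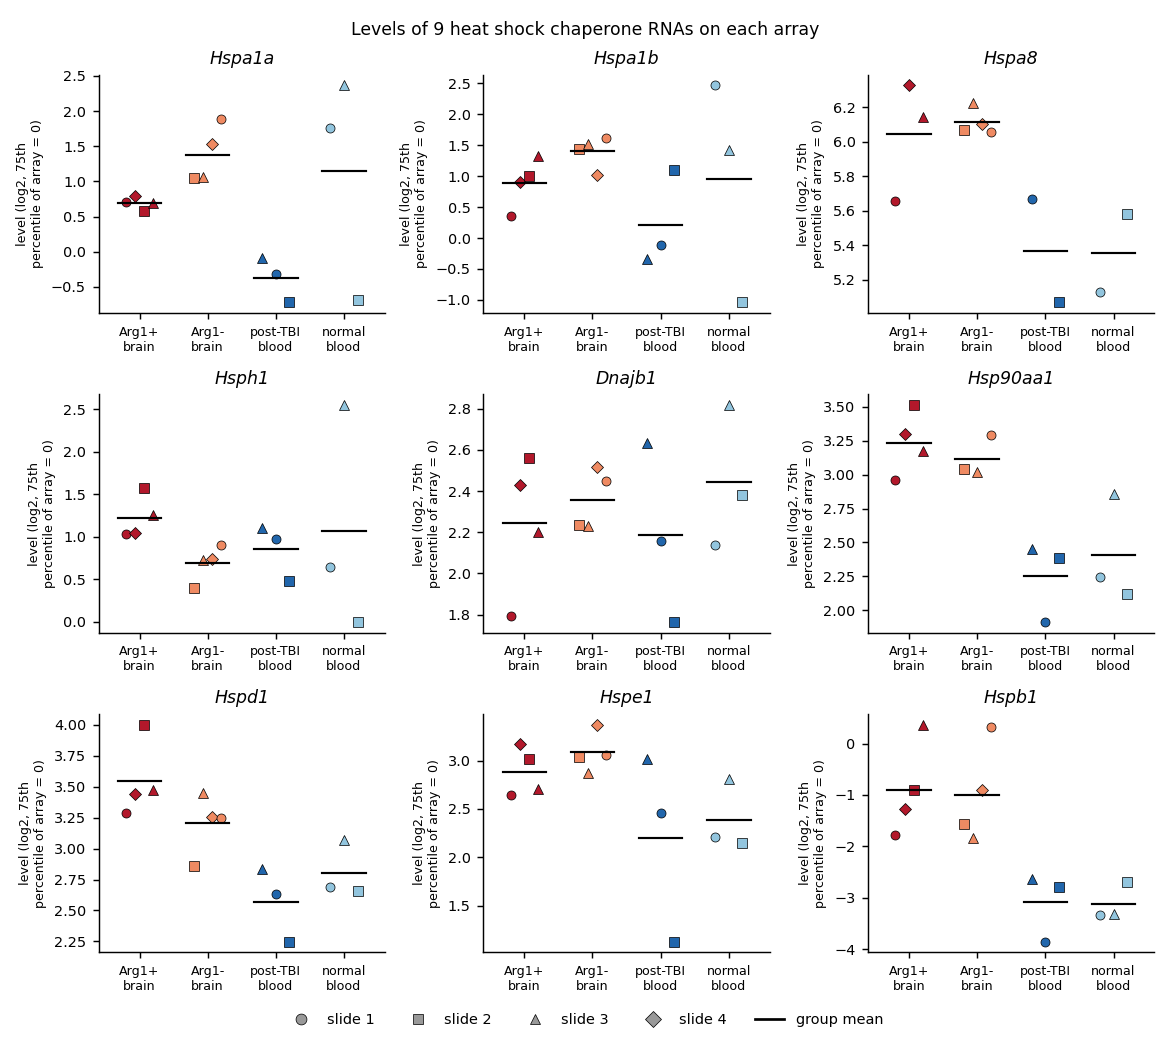
Level of each of the 9 genes on each array (log2 of the processed signal over the array's 75th percentile, 1 panel per gene with its own axis), by group from left to right. Points are arrays, their shape gives the slide, and the line is the group mean. Hspb1, Hsp90aa1, Hspd1 and Hspa1a sit higher on every brain array than on every post-TBI blood array. Dnajb1, Hsph1, Hspe1 and Hspa1b overlap post-TBI blood in both brain groups, and Hspa8 in Arg1+ brain. Each gene is drawn by its brightest kept probe, and the dimmer Dnajb1 probe, not drawn, did not overlap post-TBI blood.

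Hsp90aa1, the inducible cytosolic HSP90, was also higher in brain cells. It read 2.96, 3.30, 3.51 and 3.18 in Arg1+ brain, 3.04, 3.02 and 3.29 on the 3 usable Arg1- brain arrays, 2.45, 1.91 and 2.38 in post-TBI blood and 2.25, 2.86 and 2.12 in normal blood. The brain arrays all lay above the blood arrays, and the brain groups overlapped each other. The difference from post-TBI blood was 0.99 ± 0.21 in Arg1+ brain (1.98-fold, adjusted p = 0.00157) and 0.87 ± 0.22 in Arg1- brain (1.83-fold, adjusted p = 0.00752). With the slide as a block these were 0.97 (adjusted p = 0.00412) and 0.87 (adjusted p = 0.00958), and each was positive on 3 of 3 slides. Arg1+ and Arg1- brain were 0.12 ± 0.21 apart (adjusted p = 0.876), and post-TBI blood read 0.16 ± 0.22 lower than normal blood, which was no call (adjusted p = 1).

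The mitochondrial chaperonin was read by 2 probes of Hspd1 and 1 of Hspe1. The brighter Hspd1 probe gave 3.29, 3.44, 4.00 and 3.48 in Arg1+ brain, 2.86, 3.45, 3.26 and 3.25 in Arg1- brain, 2.83, 2.63 and 2.25 in post-TBI blood and 2.69, 3.07 and 2.66 in normal blood. Brain arrays lay above all post-TBI arrays, and normal replicate 3 lay inside the Arg1- range. Hspd1 was higher than in post-TBI blood by 0.98 ± 0.21 in Arg1+ brain (1.97-fold, adjusted p = 0.00141) and by 0.63 ± 0.21 in Arg1- brain (1.55-fold, adjusted p = 0.0271). The slide block gave 0.99 (adjusted p = 0.00242) and 0.64 (adjusted p = 0.0318), and within slides the differences were 0.64 to 1.75 and 0.61 to 0.62. The Arg1- call was lost when Arg1- replicate 2, 3 or 4 or post-TBI replicate 3 or 4 was left out (difference 0.47 to 0.66, adjusted p = 0.0560 to 0.111). The dimmer Hspd1 probe gave 1.09 (adjusted p = 0.00502) and 1.03 (adjusted p = 0.00893) in Arg1+ and Arg1- brain. Hspe1, the lid, read 2.64, 3.17, 3.02 and 2.71 in Arg1+ brain, 3.04, 2.87, 3.37 and 3.06 in Arg1- brain, 3.02, 2.46 and 1.13 in post-TBI blood and 2.21, 2.81 and 2.15 in normal blood. Post-TBI replicate 1 lay among the brain arrays and replicate 4 far below all others. Hspe1 differed from post-TBI blood by 0.68 ± 0.33 in Arg1+ brain (adjusted p = 0.118) and 0.88 ± 0.33 in Arg1- brain (adjusted p = 0.0526), neither of which was a call. In the limma fit of all kept probes, used for dimmer probes, the Arg1- value fell just under the threshold (adjusted p = 0.0498). In the authors' log2 values the Arg1- difference was a call (0.87, adjusted p = 0.0449). Without post-TBI replicate 1 the differences were 1.09 (adjusted p = 0.0123) and 1.29 (adjusted p = 0.00534), both calls. Without post-TBI replicate 4 they were 0.15 (adjusted p = 0.673) and 0.35 (adjusted p = 0.296), so single arrays moved the size and the call, and the processing moved the Arg1- call. In the fit of 21969 features Hspd1 passed the test and its partner of the shared promoter did not. Whether their differences differ was not tested.

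Hspa1a and Hspa1b, the stress-inducible HSP70 genes, had widely spread levels in normal blood. The brighter Hspa1a probe read 0.71, 0.79, 0.58 and 0.69 in Arg1+ brain, 1.04, 1.06, 1.53 and 1.89 in Arg1- brain, -0.08, -0.32 and -0.71 in post-TBI blood and 1.77, 2.37 and -0.69 in normal blood. The 4 Arg1+ arrays lay close together (SD 0.09) and below every Arg1- array, and post-TBI blood lay below both brain groups. Normal blood was split, with replicates 2 and 3 within or above the Arg1- brain range and replicate 4 at the post-TBI level. Hspa1a was higher in Arg1- brain than in post-TBI blood by 1.75 ± 0.50 (3.37-fold, adjusted p = 0.0135), with 1.15 to 2.21 within slides and 1.71 with the slide as a block (adjusted p = 0.00891). In Arg1+ brain the difference from post-TBI blood was 1.07 ± 0.50, 2.10-fold and no call (adjusted p = 0.105), though the groups did not overlap. Fitted with these 2 groups alone, or without normal replicate 4, the same difference was a call (adjusted p = 0.00408 and 0.00221), with an SE of 0.20 in the fit of these 2 groups. The Arg1- call was lost without post-TBI replicate 4 (1.58, adjusted p = 0.0533).

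Between the brain subsets Hspa1a was 0.69 ± 0.46 lower in Arg1+ cells, which was no call (adjusted p = 0.516). This SE rests on the spread of all 4 groups, normal blood included. Hspa1a was lower on 4 of 4 slides, by values from -1.18 to -0.37. Neutrophil markers also read lower in Arg1+ brain. The sum of 10 genes was 3.02 to 10.3 there, with 8 or 9 of 10 well above background, against 29.5 to 138.3 in Arg1- brain, with 10 of 10. Arg1- replicate 4, with the most Hspa1a of its group, had the lowest of these 4 sums. The sum of 5 dendritic cell markers was 0.32 to 0.45 in Arg1+ brain and 3.48 to 5.01 in Arg1- brain. Of 7 platelet markers, Pf4 (mean level 6.78 in Arg1+ brain and 4.29 in Arg1- brain) and Ppbp (3.01 and 0.29) read higher in Arg1+ cells, while Itga2b (-1.89 and -1.60), Itgb3 (-1.92 and -1.17) and Gp9 (-4.21 and -3.86) read lower there, so the list did not move as 1. Post-TBI blood read Hspa1a 1.52 ± 0.53 lower than normal blood, the only member with an unadjusted p under 0.05 in that comparison (0.0123), and no call after adjustment (0.545). Without normal replicate 4 the difference was -2.44 and a call (adjusted p = 0.00410). Of the neutrophil markers in normal blood, Retnlg alone set the sum: it read 188.7 multiples of the 75th percentile on replicate 4, against 23.1 and 19.1 on replicates 2 and 3. The other 9 markers summed to 1.84 on replicate 4, against 2.82 and 5.07 on replicates 2 and 3. Without Retnlg the sums were 2.76 to 9.98 in Arg1+ brain and 25.3 to 131.2 in Arg1- brain. The part of these other cells in the Hspa1a values was not tested.

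Hspa1b had group means in the same order, with wider scatter except in Arg1- brain (SD 0.26, against 0.41 for Hspa1a, brighter probes). Its brighter probe read 0.35, 0.91, 1.00 and 1.32 in Arg1+ brain, 1.44, 1.53, 1.02 and 1.62 in Arg1- brain, -0.35, -0.12 and 1.11 in post-TBI blood and 2.47, 1.43 and -1.04 in normal blood. Post-TBI replicate 4 lay among the brain arrays on this probe, but its dimmer probe put the same array at -2.10, the lowest of the 3. That dimmer probe read -0.55, -0.48, -0.62 and -0.35 in Arg1+ brain, -0.23, -0.0046, -0.42 and 0.60 in Arg1- brain, -1.54, -1.58 and -2.10 in post-TBI blood and 0.52, 0.22 and -2.01 in normal blood. On it, both brain groups lay clear of post-TBI blood. The brighter probe gave 0.68 ± 0.59 in Arg1+ brain (adjusted p = 0.400) and 1.19 ± 0.59 in Arg1- brain (adjusted p = 0.139) over post-TBI blood, without a call, whereas the dimmer probe gave 1.24 (adjusted p = 0.0373) and 1.73 (adjusted p = 0.00758), both calls. The brighter-probe difference in Arg1- brain was a call with these 2 groups alone (adjusted p = 0.0329) and without normal replicate 4 (adjusted p = 0.0168). The mean of the kept probes gave 1.46 there, also a call (adjusted p = 0.0331). Hspa1b was called in 3 of 26 settings in Arg1- brain and in 0 of 26 in Arg1+ brain. The dimmer Hspa1a probe gave 1.31 (adjusted p = 0.0783) and 2.12 (adjusted p = 0.00887). On all 4 probes normal replicate 4 was the lowest normal array by a wide margin.

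**Figure D2:**
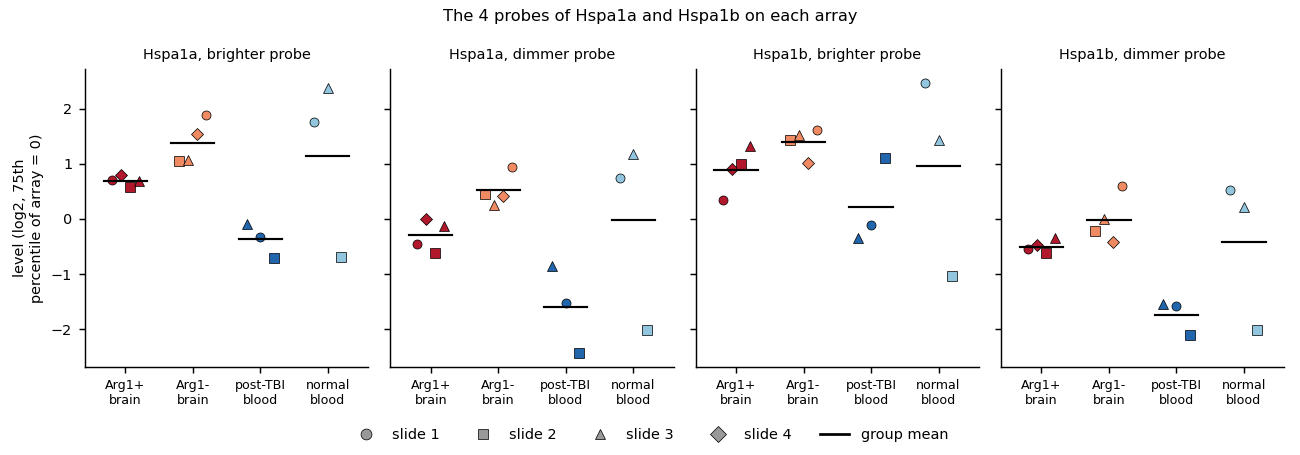
Level of the 4 probes of Hspa1a and Hspa1b on each array (log2 of the processed signal over the array's 75th percentile), by group from left to right, with the slide as point shape and the group mean as a line. On every probe normal blood holds 2 high arrays and 1 low array, and only the brighter Hspa1b probe places a post-TBI blood array (replicate 4, 1.11) among the brain arrays.

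Hspa8, the constitutive HSP70, read 5.66, 6.33 and 6.14 on 3 usable Arg1+ brain arrays, 6.07, 6.23, 6.11 and 6.05 in Arg1- brain, 5.67 and 5.07 on 2 post-TBI arrays and 5.13 and 5.58 on 2 normal arrays. Spots called outliers by the scanner software were left out, and Arg1+ replicate 1 met the post-TBI range. Hspa8 was higher in Arg1- brain than in post-TBI blood by 0.74 ± 0.25 (1.68-fold, adjusted p = 0.0407), and in Arg1+ brain the difference was 0.67 ± 0.27 (adjusted p = 0.0649). The Arg1- call did not hold when the outlier spots were kept (0.25, adjusted p = 0.301), in the authors' log2 values (0.13, adjusted p = 0.654) or with the slide as a block (0.60, adjusted p = 0.109). It was a call in 14 of 26 settings, which include normal blood in place of post-TBI blood. Hsph1, the exchange factor, read 1.03, 1.04, 1.58 and 1.25 in Arg1+ brain, 0.40, 0.73, 0.74 and 0.90 in Arg1- brain, 1.10, 0.98 and 0.48 in post-TBI blood and 0.65, 2.55 and -0.0036 in normal blood. Every Arg1+ array lay above every Arg1- array, and blood spanned both. Arg1+ was above Arg1- by 0.53 ± 0.39 (adjusted p = 0.560), without a call, and on 4 of 4 slides. This SE, too, rests on the spread of all 4 groups, normal blood included. Hsph1 differed from post-TBI blood by 0.37 ± 0.42 in Arg1+ brain (adjusted p = 0.530) and by -0.16 ± 0.42 in Arg1- brain (adjusted p = 0.825).

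Dnajb1, the J-domain partner, was measured by 2 probes that disagreed. The brighter read 1.79, 2.43, 2.56 and 2.20 in Arg1+ brain, 2.24, 2.23, 2.52 and 2.45 in Arg1- brain, 2.63, 2.16 and 1.76 in post-TBI blood and 2.14, 2.82 and 2.38 in normal blood, and the groups overlapped. Its differences from post-TBI blood were 0.06 ± 0.23 in Arg1+ brain (adjusted p = 0.874) and 0.17 ± 0.23 in Arg1- brain (adjusted p = 0.632). The dimmer read 2.03, 2.28, 2.36 and 2.14 in Arg1+ brain, 2.35, 2.10, 2.35 and 2.19 in Arg1- brain, 1.71, 1.61 and 1.96 in post-TBI blood and 1.57, 2.03 and 1.98 in normal blood. Both brain groups lay above post-TBI blood on this probe, by 0.45 ± 0.16 (adjusted p = 0.0323) and 0.49 ± 0.16 (adjusted p = 0.0242), which were calls. Only the dimmer of the 2 probes passed the test.

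Over the 9 members, none was called between Arg1+ and Arg1- brain, where 5.04% of features were called. No member had an unadjusted p under 0.05 there, against 3854 features, and the median difference was -0.07, from -0.69 for Hspa1a to 0.53 for Hsph1, with 0 for all features. These p-values rest on a spread shared with blood. Hspa1a had an SD of 1.62 in normal blood, against 0.09 in Arg1+ and 0.41 in Arg1- brain. Hsph1 had 1.33, against 0.26 and 0.21. Over 25 settings their smallest limma adjusted p between the brain subsets was 0.0783 and 0.0935, and 0 were calls. Hsph1 was the only member with all Arg1+ arrays above all Arg1- arrays (7.49% of features) and Hspa1a the only one with all below (7.37%). None was called between post-TBI and normal blood, where 0.15% of features were called, 1426 features had an unadjusted p under 0.05, and the members' median was -0.21. No member had blood groups free of overlap, against 9.26% of features.

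In Arg1+ brain against post-TBI blood, 3 of 9 members were called higher (Hspb1, Hsp90aa1 and Hspd1) and none lower, where 39.9% of all features were called (19.9% of all features higher and 20% lower). In Arg1- brain 5 of 9 were called higher (with Hspa1a and Hspa8 in addition) and none lower, where 33.4% of all features were called (17% of all features higher and 16.4% lower). That count of 5 was 2 without post-TBI replicate 4, 3 without Arg1- replicate 2, 3 or 4, and 4 with the slide as a block. The median difference was 0.68 in Arg1+ brain and 0.87 in Arg1- brain, against -0.03 and -0.02 over all features. All 9 members had positive differences in Arg1+ brain and 8 in Arg1- brain, Hsph1 being the exception. Groups did not overlap for 4 members in Arg1+ brain (19.2% of features higher) and for 5 in Arg1- brain (18.9%). The 2 comparisons share the post-TBI arrays. A second comparison chosen after seeing the data, with normal blood in place of post-TBI blood, called 3 members higher in each brain group, where 40.5% of features were called in Arg1+ brain (19.7% higher) and 32.3% in Arg1- brain (16.2% higher). Hsp90aa1 was above normal blood by 0.83 (adjusted p = 0.00504) and 0.71 (adjusted p = 0.0235), and Hspb1 by 2.21 (adjusted p = 0.00364) and 2.12 (adjusted p = 0.00638). Hspd1 was called in Arg1+ brain (0.75, adjusted p = 0.00878) and Hspa8 in Arg1- brain (0.76, adjusted p = 0.0382). Hspa1a was not called against normal blood, at -0.45 (adjusted p = 0.53) and 0.23 (adjusted p = 0.776). Leaving out 1 normal array gave 3 or 4 calls higher in Arg1+ brain and 1 to 3 in Arg1- brain, with 1 call without replicate 2. Without normal replicate 4, Hspa1a was in addition called lower in Arg1+ brain than in normal blood (-1.37, adjusted p = 0.00103).

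**Figure D3:**
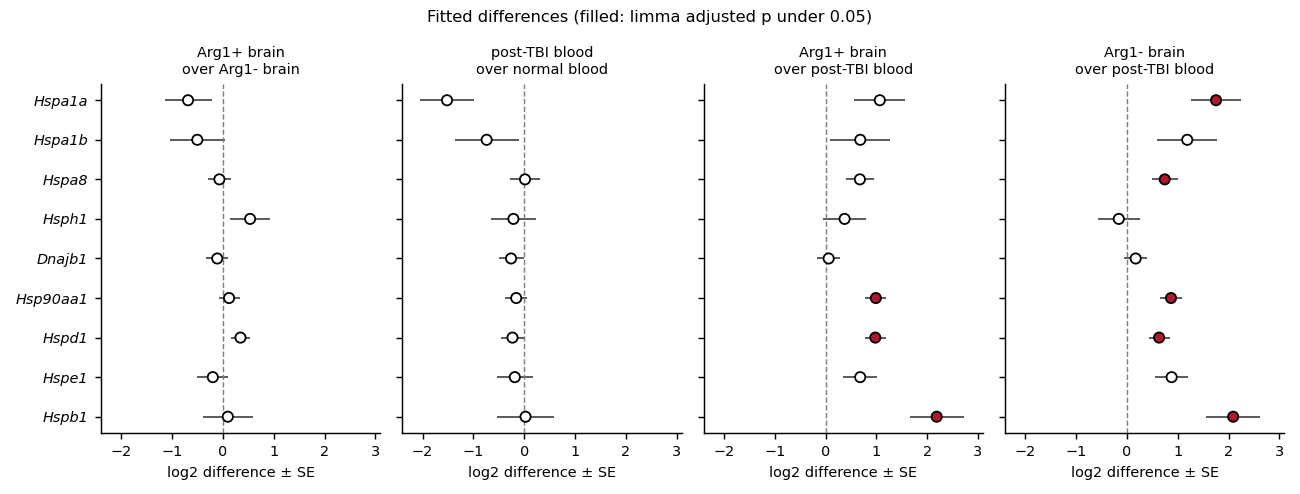
Fitted log2 difference of each member with its SE in 4 comparisons, the group named first minus the group named second. Filled points had a limma adjusted p under 0.05. Calls stand in the 2 brain comparisons with post-TBI blood, 3 in Arg1+ brain and 5 in Arg1- brain, and none stands between the brain subsets or between the blood groups.

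Levels of the members across the 14 arrays can be set side by side as a description, since arrays share group, slide and brightness. Hspa1a and Hspa1b had r = 0.73, Hspd1 and Hsp90aa1 had r = 0.85, and Hspb1 and Dnajb1 had r = 0.10. After the group means were removed, Dnajb1 and Hspe1 had r = 0.84, Hspa1a and Hsph1 r = 0.78, Hspa1a and Hspa1b r = 0.66 and Hspd1 and Hspe1 r = 0.61. Hspb1 had r between -0.05 and 0.34 with the other 8 members. The genes outside the 9 with the highest r to Hspa1a were Ifit1 (0.83), Phf11d (0.81) and Trim30a (0.81), and to Hspa1b Phf6 (0.69) and Ttc9b (0.67). Hsph1 was nearest to Zfp663 (0.83), Cacybp (0.79) and Gmcl1 (0.78), Hspd1 to Snrnp25 (0.96), Thg1l (0.95) and Atpsckmt (0.95), Hspe1 to Dph5 (0.97), Ift20 (0.96) and Wdr55 (0.96), and Dnajb1 to Atp5h (0.89), Pin4 (0.89) and Glo1 (0.86). Each r to a gene outside the 9 rests on 14 arrays. Between members, each r rests on the arrays usable for both, which were fewer for Hsp90aa1 and Hspa8.

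The rest of the chaperone network was described by lists, to be read against the 19.9% of all features called higher and 20% lower in Arg1+ brain, and 17% and 16.4% in Arg1- brain. Of 13 endoplasmic reticulum chaperones tested, 11 were higher and none lower in Arg1+ brain than in post-TBI blood (median 0.97), and 10 and none in Arg1- brain (median 0.81). Pdia4, a disulfide isomerase, led with 2.82 ± 0.20 (adjusted p = 4.8e-08) and 2.02 ± 0.20 (adjusted p = 2.93e-06), ahead of Creld2 (1.84 and 1.67) and the calcium-binding lectin chaperone Calr (1.59 and 1.30). Pdia4 was also the only gene of these lists called between the brain subsets, 0.80 ± 0.19 higher in Arg1+ cells (adjusted p = 0.0226). Of 12 mitochondrial quality control genes, 8 were higher and 1 lower in Arg1+ brain, and 5 and 1 in Arg1- brain (medians 0.64 and 0.54). Hspa9, the mitochondrial HSP70, was higher by 1.73 ± 0.17 (adjusted p = 9.27e-07) and 1.55 ± 0.17 (adjusted p = 5e-06), with Lonp1 (1.19 and 1.04) and Clpb (1.02 and 0.82), whereas the protease Htra2 was lower (-0.61 and -0.99). Of 13 genes of the cytosolic chaperonin CCT and of prefoldin, 6 were higher and 1 lower in Arg1+ brain, and 5 and 1 in Arg1- brain (medians 0.51 and 0.37). The CCT subunit Cct3 was higher by 1.69 and 1.55, Tcp1 by 0.97 and 0.91 and the prefoldin subunit Pfdn1 by 1.21 and 0.81, and Pfdn5 was lower (-0.51 and -0.55).

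Other lists lie closer to the members. Of 15 other HSP70 proteins and exchange factors, 6 were higher and none lower in each brain group (medians 0.61 and 0.50), with the HSP70-interacting proteins St13 (1.66 and 1.43) and Hspbp1 (1.46 and 1.12) after Hspa9. Of 15 HSP90 partners, 3 were higher and none lower in each brain group (medians 0.32 and 0.14), a share of 20% that is near that of all features. They were Hsp90ab1, the constitutive HSP90 (0.97 ± 0.15, adjusted p = 0.000126, and 0.80 ± 0.15, adjusted p = 0.000932), the ubiquitin ligase Stub1 (1.21 and 0.72) and the phosphatase Ppp5c (0.85 and 0.64). Fkbp5, an immunophilin of the glucocorticoid receptor complex, was the only gene of these lists called between the blood groups, higher after TBI by 1.55 ± 0.17 (adjusted p = 0.00250). Of 16 other textbook HSF1 targets, 2 were higher in Arg1+ brain and 3 in Arg1- brain and none lower (medians 0.39 and 0.20), shares of 12.5% and 18.8% that are below and near that of all features. They were Hsp90ab1, the exchange factor Bag3 (0.65 and 0.78) and, in Arg1- brain, the collagen chaperone Serpinh1 (0.61, adjusted p = 0.0286, well above background on 1 of 3 post-TBI arrays). Of 14 J-domain proteins, Dnaja3 was higher (0.61) and Dnajb6 lower (-0.98) in Arg1+ brain, and Dnajb6 (-0.82) and Dnaja2 (-0.59) were lower in Arg1- brain (medians -0.05 and -0.20). Of 8 other small heat shock proteins only Hspb6 was called, higher by 1.31 and 1.19 (medians 0.25 and 0.27). Of 4 heat shock factors and regulators (medians 0.56 and 0.35), Hsf4 (1.98 and 1.39, well above background on 1 of 3 post-TBI arrays) and Hsbp1 (1.15 and 0.77), which binds HSF1, were higher, while Hsf1 read -0.15 ± 0.25 (adjusted p = 0.696) and -0.34 ± 0.25 (adjusted p = 0.330).

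**Figure D4:**
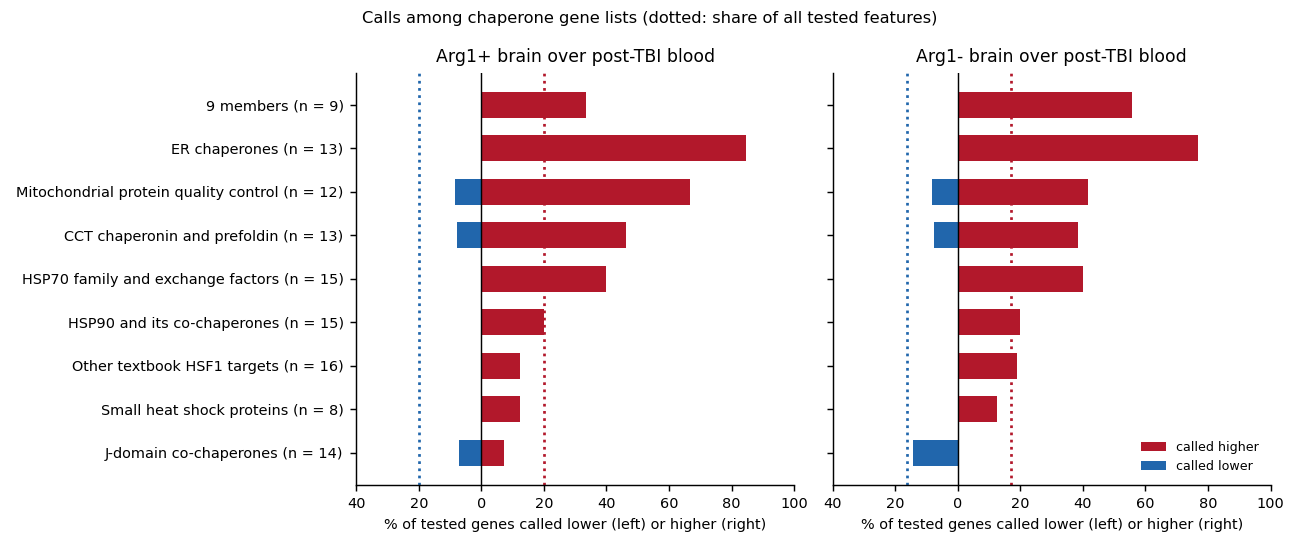
Share of the tested genes of each chaperone list called higher (right) or lower (left) in Arg1+ brain and in Arg1- brain against post-TBI blood, with dotted lines at the share of all tested features. Endoplasmic reticulum chaperones have 84.6% and 76.9% called higher, the 9 members 3 and 5 genes, and J-domain proteins stay at or under the lines.

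Immediate early genes, a list of transcripts that rise within minutes of a stimulus and are known to rise during tissue dissociation, moved in both directions. Of 19 tested, 8 were higher and 6 lower in Arg1+ brain than in post-TBI blood, and 7 higher and 5 lower in Arg1- brain (medians 0.47 and 0.01). These shares were 42.1% and 31.6% in Arg1+ brain, where 19.9% and 20% of all features were called higher and lower, and 36.8% and 26.3% in Arg1- brain, against 17% and 16.4% of all features. Ier3 (4.24 and 3.39), Jun (3.15 and 3.03), Egr1 (2.54 and 2.53) and Egr2 (2.52 and 2.91) were higher in both brain groups. The nuclear receptor Nr4a1 (-2.94 and -2.13), Btg2 (-1.54 and -1.03) and Zfp36, which binds AU-rich mRNAs (-1.12 and -1.43), were lower in brain. The part of the digestion in these values and in those of the 9 chaperones was not tested.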

How the data were processed

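RNA was amplified, labelled with Cy3 and hybridised, 1 sample per array, per the labels' protocols. Per the file headers, the deposited scanner files come from Feature Extraction 10.7.3.1 and hold a processed signal intensity per spot, already background-subtracted, with quality values of other kinds as 0 or 1. The authors also deposited a table of log2 values, whose order within an array followed the median signal of the spots. Per the submitters' processing notes limma was used, with no version given. The mm9-based probe annotation was not used for positions.

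Here each processed signal was divided by its array's 75th percentile, raised to at least 0.05 and log2 transformed. Spots with outlier calls were set to missing, and spots of a probe were averaged. A probe was kept with 2 or more usable arrays in every group and well above background on 3 or more of 14 arrays (27609 of 41174). RefSeq accessions named 24844 probes (assembly GRCm38.p6, for names only), and 16330 had no symbol. The brightest kept probe stood for a gene. The second kept probes of 4 members were tested in a separate fit of all kept probes, adjusted over those. The second Hspa8 probe had too few usable spots. limma 3.58.1 in R 4.3.3 fitted 4 groups on 14 arrays with an intensity trend, two-sided, with Benjamini-Hochberg adjustment over all features. The script was tested on simulated data. The number of arrays limits the precision.

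Arrays lay on 4 slides, each scanned in 1 scan, so slide and scan cannot be told apart. Slide 4 held 2 brain arrays only. Arrays of the same slide deviated together (r = 0.04 to 0.59), so slide-block and within-slide values are given. The replicate numbers gave no steady pairing of the samples (r of same-numbered deviations -0.46 to 0.40). The 0.40 was between replicate 4 of the Arg1+ and Arg1- brain groups, which lay on different slides. Whether these arrays share a source was not tested. The normexp alternative used the median signal with offset 50, as no mean signal column was at hand. Alternatives were another background correction, quantile normalization, the authors' log2 values, no filter on dim probes, the mean over probes, a floor of 0.1, slide and replicate blocks, no trend, outlier spots kept, 2 groups alone, and each array left out. Normal blood in place of post-TBI blood, tests of second probes and leaving out arrays of groups not compared were chosen after seeing the data.

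The named genes are the 9 members, up to 3 called genes per list, comparison and direction with the largest difference, the 3 genes with the highest r to each member read above background on all arrays, Arg1 and marker genes. For Hspa1b 1 of these 3 is not reported here. The members and lists were chosen with earlier results of these data known. Hsp90ab1, Bag3, Hspa9 and others stand in more than 1 list.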

Additional observations from a re-analysis of the deposited data

How the results depend on the processing

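Hsp90aa1 and Hspb1 were called higher in both brain groups than in blood, and Hspd1 in Arg1+ brain, in 26 of 26 settings. In Arg1- brain Hspa1a was called in 23 of 26, Hspd1 in 17 and Hspa8 in 14. These settings include normal blood in place of post-TBI blood, where Hspa1a and Hspd1 were not called in Arg1- brain. They also include 7 that left out an array of a group not compared, so they are not 26 separate checks of 1 comparison. Genes called between Arg1+ and Arg1- brain fell to 526 with normexp. Between post-TBI and normal blood they were 15 with normexp, 20 with the authors' log2 values, 2 with the replicate block and 0 with these 2 groups alone (894 at an unadjusted p under 0.05), against 33. In Arg1- brain against post-TBI blood, 2 members were called with no filter on dim probes and 3 with normal blood in place of post-TBI blood. Leaving out 1 array of the groups compared gave 602 to 945 genes between the brain subsets, 2 to 60 between the blood groups, 7276 to 8652 in Arg1+ brain and 5857 to 7531 in Arg1- brain against post-TBI blood. Leaving out an array of the other groups gave 980 to 1790, 18 to 31, 8435 to 8677 and 7017 to 7417. Members called ranged over 0 to 0, 0 to 1, 3 to 4 and 2 to 6 in the first case and 0 to 0, 0 to 0, 3 to 4 and 4 to 6 in the second. The replicate block, whose numbers gave no steady pairing, also moved Hspe1 in Arg1- brain past the threshold (0.90, adjusted p = 0.0461) and lost Hspa8 (0.85, adjusted p = 0.106).

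Direction turned only for differences of members without a call. Between post-TBI and normal blood, Hspa8 was -0.019 with normexp, -0.097 with quantile normalization, -0.095 with the authors' values, -0.062 with the replicate block and -0.091 with outlier spots kept, and Hspb1 was -0.014 with normexp, -0.026 with the authors' values and -0.030 with the replicate block. Between the brain subsets, Hsp90aa1 was -0.023 with quantile normalization and -0.041 with the authors' values. In Arg1+ brain against post-TBI blood, Dnajb1 was -0.0084 with normexp, -0.068 with quantile normalization and -0.036 with the authors' values, and Hspa8 -0.073 with the authors' values. With normal blood in place, Dnajb1 was -0.20 and -0.088 in Arg1+ and Arg1- brain, Hspa1a -0.45 and Hspa1b -0.058 in Arg1+ brain. Leaving out 1 array gave, between the brain subsets, -0.22 to 0.039 for Dnajb1, -0.21 to 0.12 for Hspa8 and -0.33 to 0.53 for Hspb1. Between the blood groups it gave -0.30 to 0.067 for Hsp90aa1, -1.74 to 0.017 for Hspa1b, -0.29 to 0.31 for Hspa8, -0.20 to 0.41 for Hspb1, -0.59 to 0.35 for Hspe1 and -0.75 to 0.53 for Hsph1. Against post-TBI blood it gave -0.15 to 0.28 and -0.038 to 0.40 for Dnajb1 in Arg1+ and Arg1- brain. The causes were not tested. Normexp moved the median of all features to 0.14 between the brain subsets and 0.15 in Arg1+ brain against post-TBI blood. The number of arrays limits the precision, and Hspb1 is near background in blood.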
